A study of Homo sapiens with 4 samples.

Results

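The genes described here are the 77 human genes for the proteins of the cytosolic ribosome, 46 of the large subunit and 31 of the small subunit, among 25693 genes in the count table. They were picked by symbol alone: RPL or RPS followed by digits and an optional A or X, together with RPLP0, RPLP1, RPLP2 and RPSA. Pseudogenes and paralogues with other names were not taken. All 77 symbols that the annotation holds under this rule were in the table, and all 77 passed the filter on low counts.

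RNA came from NGP, an established human neuroblastoma cell line. All cells had been deprived of serum to synchronise them and were then kept for 24 h with Nutlin-3, which keeps MDM2 from binding p53, or with its solvent ethanol. Cells were captured on the ddSeq droplet device, and 4 libraries were made with the SureCell WTA 3' kit, in which reads come from the 3' ends of polyadenylated RNA. The 2 libraries of each treatment differed in the dilution of the added ERCC spike-in RNAs, 1000-fold or 10000-fold. The names of the 500 columns tell the treatment but not the library, so each treatment is 1 pool of 250 columns, and nothing in the labels says that libraries came from separate cultures.

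A ribosome joins a large subunit, which forms peptide bonds, to a small subunit, which reads the messenger RNA. Nearly every one of its proteins is present once per ribosome and comes from a single active gene, while many silent processed copies of these genes are scattered over the genome. Messenger RNAs of ribosomal proteins commonly start with a C followed by a run of pyrimidines, the terminal oligopyrimidine or TOP motif, through which mTOR and LARP1 control their translation. RPL5, RPL11, RPL23, RPL26 and RPS27A are known to bind MDM2 when they are free of the ribosome.

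The ethanol pool held 1342134 human counts and the Nutlin-3 pool 1301232, with 2989 and 4007 ERCC counts. Column totals fell into a large class above 4000 counts and a small class below it, with 113 large and 137 small columns in each pool. Of the 250 column names of a pool, 219 also occur in the other, including those of all 113 large columns, so columns are not taken as separate cells. All 8 adrenergic neuroblastoma markers were in the table, from DBH with 131 counts with Nutlin-3 and 104 with ethanol to MYCN with 877 and 1140. The blood markers PTPRC, CD3E and HBB had no row, and LYZ had 49 and 24 counts. Of 7 mesenchymal or fibroblast markers 6 were in the table, with 89 counts in all for Nutlin-3 and 114 for ethanol. Among them LUM had 13 and 34, FN1 19 and 37, and COL1A1 47 and 29, and their part in the results was not tested. Mitochondrial transcripts made up 1.06% of human counts in Nutlin-3 and 1.09% in ethanol. MDM2 had 504 counts with Nutlin-3 and 315 with ethanol, and CDKN1A, a p53 target that halts the cell cycle, had 188 and 70. With 1 pool per treatment no difference has a replicate check and no p-value was computed. The 95% intervals below cover counting error only, except those of medians, which cover spread over genes that share libraries.

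The starts of these genes show what their messages share outside the coding region, which the choice by symbol did not use. RefSeq (GRCh38.p14) lists a start for 62 of the 77 genes, and 46 of these (74.2%) have a listed start at a C followed by at least 4 further pyrimidines. Among all 27305 genes with a listed start 5.14% have such a run, and among the 1519 other genes at least as abundant in these pools as the lowest ribosomal protein gene the share is 11.3%. Only the strand of the gene was searched, at the start itself, and a match describes these letters and is not proof of a working motif. The windows below hold 5 bases before the start and 20 from it, with the run in capitals. They were chosen to show genes with a high level (RPL13A, RPLP1, RPS19), a large difference between treatments for their subunit (RPL34, RPS27, RPS24), a small one (RPL13, RPLP0, RPS23), the MDM2 binder RPL11, the longest run (RPL39) and a start with no run (RPS4X).
RPL13A: tcctcCTTTTCCaagcggctgccga
RPLP1: gagagCCCCTTTCCTCagctgccgc
RPS19: tcgttCCCTTTCCCCTggctggcag
RPL34: ttcttCCTCTTCCggggacgttgtc
RPS27: tcgctCCTTTCCggcggtgacgacc
RPS24: tggttCTCTTTTCCTCCTTggctgt
RPL13: gcttcCTTTCCgctcggctgttttc
RPLP0: gaggcCCTTCTCTCgccaggcgtcc
RPS23: cttctCTCTTTCgctcaggcccgtg
RPL11: gctttCTCTTCCTgctctccatcat
RPL39: agcttCCCTCCTCTTCCTTTCTCCg
RPS4X: gccccaatttctacgcgcaccggaa
In these windows the run spans 6 bases in RPL13, 8 in RPL34, 14 in RPS24 and 19 in RPL39. Over the 46 genes with a run its length was 5 to 19 bases, with a median of 8. The RPL34 window lies at chr4:108620571-108620595 on the plus strand, that of RPS24 at chr10:78033858-78033882 on the plus strand, and that of RPL39 at chrX:119791611-119791635 on the minus strand.

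Ribosomal protein transcripts were among the most abundant in both pools. Their 77 genes held 31282 counts in ethanol, or 2.33% of human counts (exact binomial bounds 2.31 and 2.36). With Nutlin-3 they held 35042, or 2.69% (2.67 and 2.72). The Nutlin-3 share was 1.16 times the ethanol share (1.14 to 1.17), a log2 difference of 0.21 (0.19 to 0.23). The difference is relative to all human counts. Scaling to ERCC counts instead lowers the median log2 fold change of the 77 genes from 0.21 to -0.26 and that of all genes to -0.47. The libraries of each treatment differ in ERCC dilution, and columns cannot be tied to libraries. Pooled ERCC totals thus depend on an unknown mix of dilutions, so this scaling is itself uncertain. A pooled sum cannot tell more cells with a transcript from more transcript per cell.

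Levels were given as CPM, the usual unit of counts relative to the human total of the library, with TMM scaling. Over the 77 genes the mean of both pools ran from 106.9 to 634.6 CPM, with a median of 307.4, so the highest stood 5.94-fold above the lowest. In all, 50 of the 77 genes were among the 100 most abundant genes of the table. Across the genes, CPM in the pools had a Spearman rho of 0.98, with genes sharing libraries and depth. The pools therefore ordered the 77 genes nearly alike.

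High levels were found in both subunits. RPL13A (chromosome 19, 49487554 to 49492308 in GRCh38), a large subunit protein, had 849 counts with Nutlin-3 and 767 with ethanol and ranked 12th of all genes. RPLP1, an acidic protein of the stalk that binds translation factors, had 786 and 721. RPS19, the small subunit protein most often mutated in Diamond-Blackfan anaemia, had 792 and 669. These genes had higher sums in Nutlin-3, and the 95% Poisson intervals of the sums overlapped for RPL13A and RPLP1 but not for RPS19, at 737.8 to 849.1 against 619.3 to 721.7. Per kilobase of the shortest annotated coding transcript, RPLP1 led with 2229 CPM per kb, and RPL4 was lowest with 155.2. Over the 46 large subunit genes the median was 527.3 CPM per kb and over the 31 small subunit genes 682.4. A kit that reads the 3' end gives counts that need not scale with length, and transcript length and CPM had a Spearman rho of 0.06 over the 77 genes.

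The lowest levels belonged to RPL39, which lines the exit tunnel of the large subunit, with 153 counts with Nutlin-3 and 129 with ethanol, and to RPL17, which sits at the tunnel's end, with 162 and 138. RPS26 had 168 and 163 counts, RPL36A 172 and 154, RPL41, the shortest ribosomal protein, 188 and 176, and RPS10, at the entry of the messenger RNA, 192 and 169. Exons of 13 of the 77 genes overlap another annotated gene on the same strand, and 5 of these are among the 10 lowest by CPM. RPL17, RPL36A and RPS10 overlap readthrough genes that join them to a neighbour (RPL17-C18orf32, RPL36A-HNRNPH2 and RPS10-NUDT3). How the counting split reads between such genes is not given in the sources used here, so the levels of these genes are uncertain. The lowest sums also lay near 1 count per large column. In the 113 large ethanol columns RPL39 had 119 counts and stood at exactly 1 in 98, and RPL17 had 123 and stood at 1 in 103. How far this piling up at 1, described below, narrows the range of levels was not tested.

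**Figure D1:**
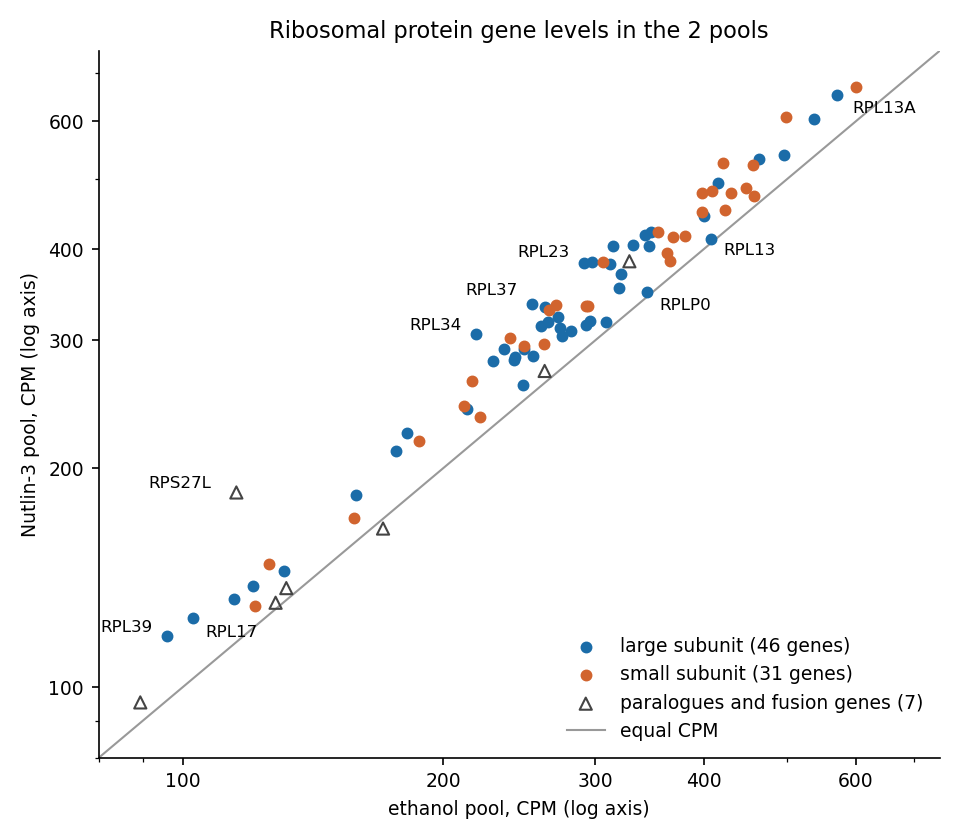
Level of each ribosomal protein gene in the ethanol pool (x axis, CPM, log scale) and the Nutlin-3 pool (y axis, CPM, log scale), with 46 large subunit genes in blue, 31 small subunit genes in orange, and 7 paralogues and fusion genes as open triangles; the line marks equal CPM. All 77 genes lie above the line when scaled to human counts (1 of 77 when scaled to ERCC counts), with RPL39 at the bottom.

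The contrast of the study is Nutlin-3 against ethanol, and members of both subunits differed between the pools by small amounts. All 77 genes had a log2 fold change above 0 when scaled to human counts, against 49.7% of the 14830 genes that passed the filter, while scaling to ERCC counts left 1 of 77 above 0. The fold changes ran from 0.02 to 0.49 with a median of 0.21, beside -0.001 for all genes that passed. The order-statistic interval of the median, 0.19 to 0.25, covers spread over genes that share libraries and does not bound a treatment difference. Past a log2 fold change of 0.25, a factor of 1.19, were 27 genes in the direction of Nutlin-3, that is 35.1% of the members, and 0 in the other. Of all genes that passed the filter, 18.3% were past it in the direction of Nutlin-3 and 16% in the other, most of them genes with far fewer counts. Among the 1926 other genes at least as abundant as the lowest member, 2.39% were past it upward and 5.19% downward, 42.6% were above 0, and the median was -0.02. The counting interval lay wholly above 0 for 40 members, 26 of the large subunit and 14 of the small subunit. It did so for 1.45% of the 1926 other genes and 4.55% of all genes that passed the filter. The 1926 genes meet only the floor set by the lowest member and are not matched to the members in level. They held 351351 counts with Nutlin-3 against 35042 for the 77 members, so fewer per gene, which widens their intervals. Most of their values in large columns were exactly 1, as given further below, so their sums there had little room to differ between the pools. Their shares past 0.25 and with an interval above 0 are thus not an even background for the members. The part of level in these contrasts was not tested.

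In the large subunit the largest difference was that of RPL34 (ENSG00000109475, chromosome 4, 108620566 to 108630412). It had 398 counts with Nutlin-3 (Poisson bounds 359.9 and 439.1) against 293 with ethanol (260.4 and 328.5), giving a log2 fold change of 0.49 (0.27 to 0.71). RPL37 (chromosome 5, 40825262 to 40835335) had 438 and 340 counts, at a log2 fold change of 0.41 (0.20 to 0.62). RPL23 (chromosome 17, 38847865 to 38853843), which binds MDM2, had 498 and 391 and 0.40 (0.20 to 0.59). The Poisson intervals of both sums stood apart for these genes, with Nutlin-3 the higher.

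In the small subunit RPS27 (chromosome 1, 153990755 to 153992155), a zinc-binding protein, was first, with 393 counts with Nutlin-3 and 321 with ethanol, so that its log2 fold change was 0.34 (0.12 to 0.56). RPS24 (chromosome 10, 78033732 to 78056813) followed with 499 and 411 counts and 0.33 (0.14 to 0.52). The Poisson intervals of the sums stood apart for RPS24, at 456.2 to 544.8 and 372.2 to 452.7, while those of RPS27 overlapped, at 355.1 to 433.8 and 286.8 to 358.1. RPS6, the substrate of the S6 kinases, had 622 and 535 counts, at a log2 fold change of 0.26 (0.09 to 0.43).

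The 5 members that bind MDM2 had log2 fold changes from 0.20 to 0.40 with a median of 0.25, and 2 of the 5 were past 0.25, near the share among all members. RPL5 (chromosome 1, 92831983 to 92841924) had 420 counts with Nutlin-3 and 365 with ethanol, so that its log2 fold change was 0.25 (0.04 to 0.46). RPL11 (chromosome 1, 23691742 to 23696835), its partner on ribosomal RNA, had 692 and 622 and 0.20 (0.04 to 0.36). RPL26, which also binds the p53 message, had 239 and 213 and 0.21 (-0.06 to 0.49). RPS27A, made as a fusion with ubiquitin, had 436 and 363 and 0.31 (0.11 to 0.52). With RPL23 above, the interval of 4 of the 5 genes excluded 0, and the intervals of the 5 fold changes overlapped one another.

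Some members barely differed. RPL13 (chromosome 16, 89560657 to 89566828) had 538 counts with Nutlin-3 and 548 with ethanol, so that its log2 fold change was 0.02 (-0.16 to 0.19) after scaling to human counts. RPLP0 (chromosome 12, 120196686 to 120201235), the base of the stalk and a common reference gene in PCR, had 455 and 462, and 0.02 (-0.17 to 0.21). RPL6 had 414 counts in each pool and 0.05 (-0.15 to 0.25). The upper bound of RPL13 lies below the median of the 77 genes, and those of RPLP0 and RPL6 lie above it. In the small subunit RPS23, close to the decoding site, had 502 and 491 counts and 0.08 (-0.10 to 0.26), and RPS26 168 and 163 and 0.09 (-0.23 to 0.41). For the rest of the stalk, RPLP1 had a log2 fold change of 0.17 (0.02 to 0.32) and RPLP2, with 579 and 538 counts, 0.15 (-0.02 to 0.32). RPSA, known also as a laminin receptor, had 515 and 487 counts and 0.13 (-0.06 to 0.31), RPS4X, whose gene lies on the X chromosome, 385 and 351 and 0.18 (-0.03 to 0.39), and RPL41 0.14 (-0.16 to 0.45).

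**Figure D2:**
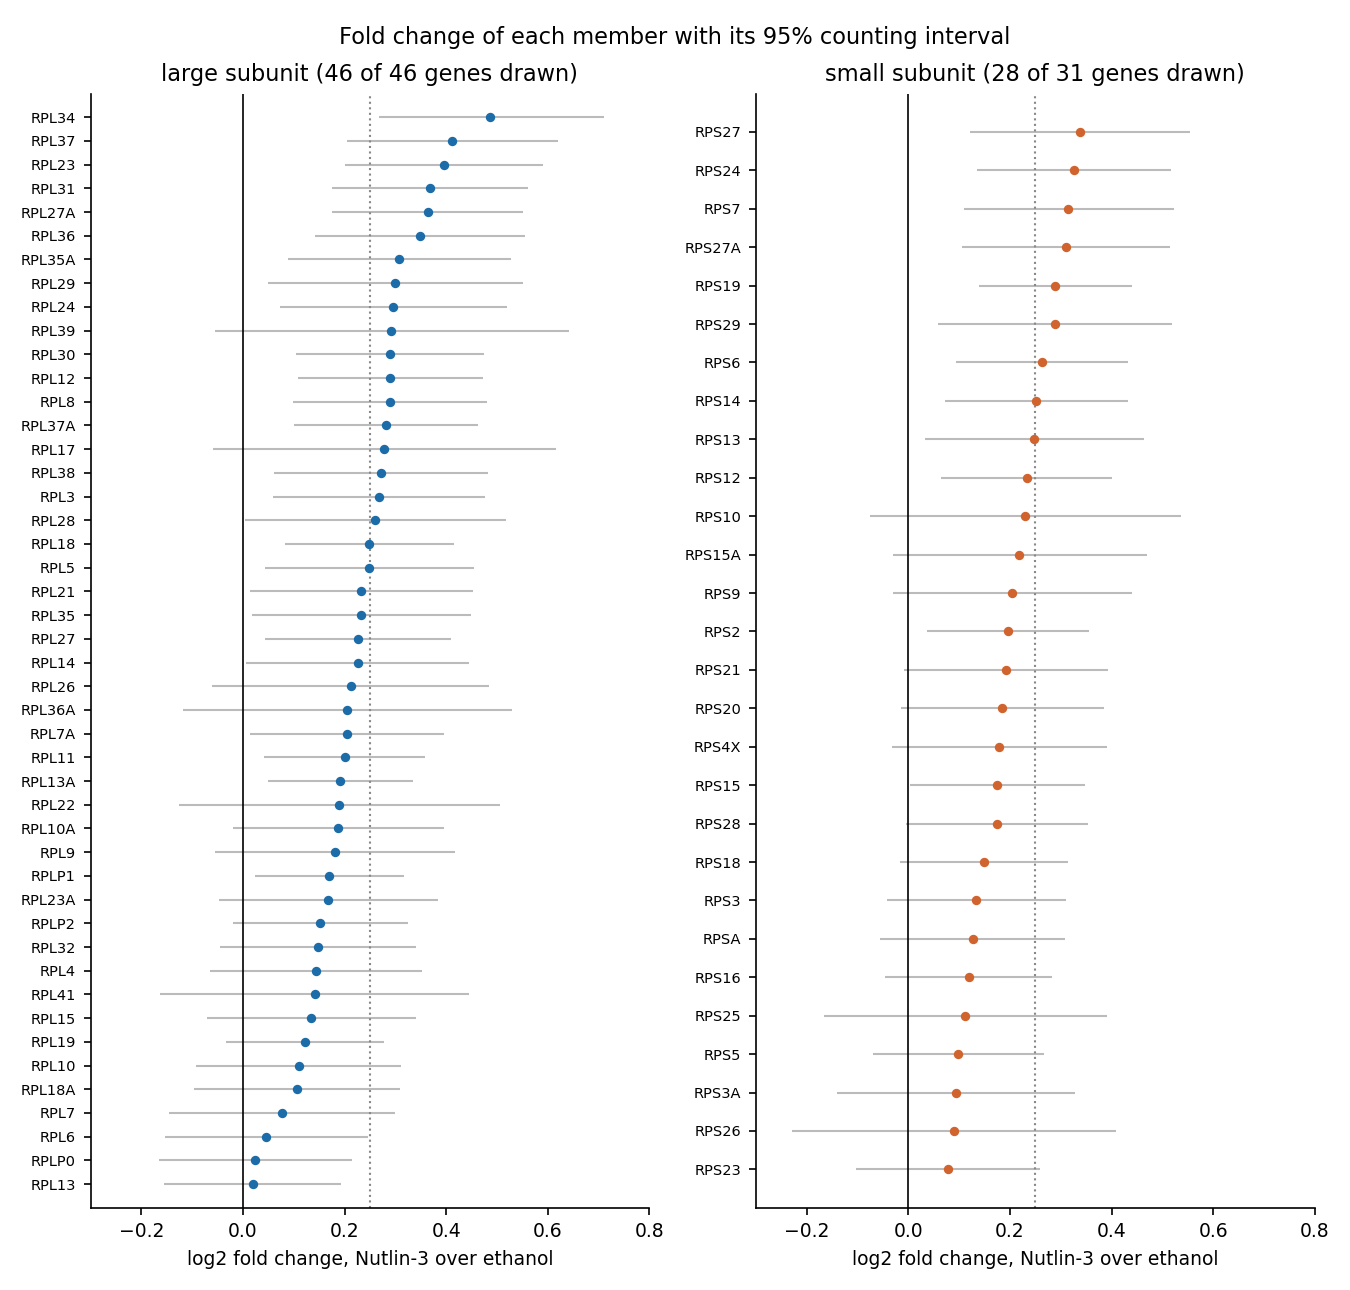
Log2 fold change, Nutlin-3 relative to ethanol (x axis) for each large subunit gene (left, 46) and small subunit gene (right, 28 of 31 drawn), with bars for the 95% counting interval; the solid line marks 0 and the dotted line 0.25. Scaled to human counts, every point drawn lies above 0 (1 of 77 genes scaled to ERCC counts), and the intervals of neighbouring genes overlap widely.

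The subunits were compared because the ribosome holds them in equal number. Large subunit genes held 17598 counts in ethanol and 19847 in Nutlin-3, a log2 difference of 0.22 (0.19 to 0.25). Small subunit genes held 13684 and 15195, a log2 difference of 0.20 (0.16 to 0.23). The large subunit thus took 56.3% of ribosomal protein counts in ethanol (55.7 to 56.8) and 56.6% in Nutlin-3 (56.1 to 57.2). It has more genes, 46 against 31, and its median count per gene was lower. That median was 368 against 476 in ethanol and 414 against 502 with Nutlin-3. The ratio of large to small subunit counts differed between the pools by 0.02 on the log2 scale, with an interval of -0.02 to 0.07, so a difference beyond counting error was not detectable at this depth. Scaled to human counts, the median log2 fold change was 0.23 over large subunit genes and 0.19 over small subunit genes. Their order-statistic intervals, 0.19 to 0.27 and 0.15 to 0.25, cover spread over genes only. Scaled to ERCC counts the medians were -0.24 and -0.28. Past 0.25 were 18 of 46 large and 9 of 31 small subunit genes.

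**Figure D3:**
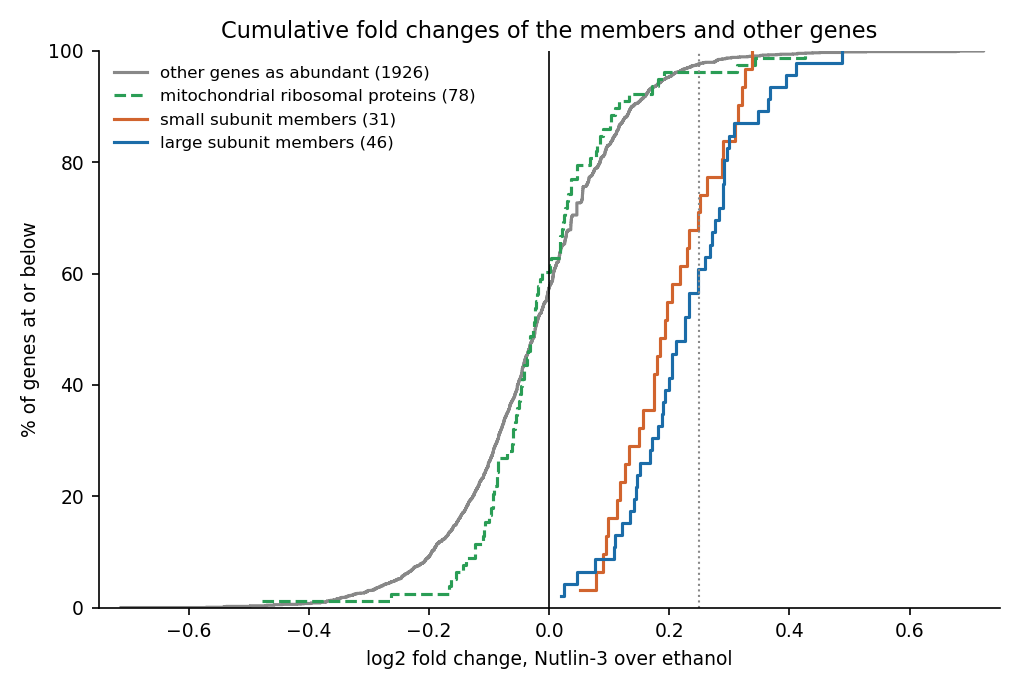
Percent of genes (y axis) at or below each log2 fold change between treatments (x axis, Nutlin-3 relative to ethanol, scaled to human counts) for the large subunit genes, the small subunit genes, 78 mitochondrial ribosomal protein genes and 1926 other genes as abundant as the lowest member; the dotted line marks 0.25. The curves of both subunits begin above 0 and run close together, while those of the other sets cross 0 near their middle; scaling to ERCC counts turns the median of the members to -0.26 and that of all genes to -0.47.

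Within the members, level and difference between treatments were nearly unrelated (Spearman rho -0.14 over 77 genes), and longer transcripts had somewhat smaller log2 fold changes (rho -0.33). Genes share libraries, so these values only describe the set. The 46 members with a pyrimidine run at a listed start had a median log2 fold change of 0.23 and 18 of them were past 0.25. The 16 with a listed start and no run had a median of 0.18 with 4 past 0.25, and the 15 with no listed start, among them RPL23 and RPL37, a median of 0.20 with 5 past it. Outside the members, the 171 genes as abundant as the lowest member that have a run had a median of 0.01, and the 1348 without one -0.03.

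The related genes did not all lie in the same range. RPS27L (chromosome 15, 63125872 to 63158021), a p53 target and the paralogue of RPS27, had 241 counts with Nutlin-3 and 155 with ethanol. Its log2 fold change was 0.68 (0.39 to 0.98), above the pooled estimate of every member, though its interval overlapped that of RPL34 (0.27 to 0.71). In large columns it was 0.465, below RPL34 at 0.484 and RPL37 at 0.468, and in small columns 1.405. RPL22L1 had 215 and 229 (-0.05, interval -0.32 to 0.23), RPL26L1 124 and 120, RPL7L1 170 and 172, and RPL36AL 178 and 177. RPL39L and RPL10L had 4 counts or fewer in each pool, too few for a fold. FAU, which makes a small subunit protein fused to a ubiquitin-like one, had 354 and 352 (0.05, interval -0.16 to 0.27).

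Other genes of translation had medians nearer to 0. The median log2 fold change was 0.02 over 9 genes of a list of elongation factors that also holds TPT1, with 6 above 0. It was 0.05 over 27 initiation factor genes, with 19 above 0. Over 21 genes for partners that synthesise or assemble ribosomal proteins it was -0.06, with 9 above 0. Over 20 other RNAs known for a TOP start it was 0.11, with 16 above 0 and 3 past 0.25. This list shares genes with the elongation and initiation factor lists, such as EEF1A1, EEF2 and EIF3E. It also holds the noncoding RNAs SNHG1 and GAS5, and GAS5 was among those past 0.25. EEF2, the translocation factor of elongation, had 306 counts with Nutlin-3 and 254 with ethanol (0.31, interval 0.07 to 0.56), and RACK1, a protein bound to the small subunit, had 470 and 412 (0.24, interval 0.04 to 0.43). EEF1A1, which brings tRNA to the ribosome, had 372 and 379 counts (0.02, interval -0.19 to 0.23). The 78 genes for the proteins of the mitochondrial ribosome had a median of -0.03, with 31 above 0 and 3 past 0.25, beside 77 of 77 and 27 for the cytosolic ribosome.

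Annotated pseudogenes of the members, of any pseudogene type, also took counts. The table holds 828 of them with 15884 counts with Nutlin-3 and 14188 with ethanol. Of these 343 passed the filter, with a median log2 fold change of 0.22 and 264 above 0. The median was 0.03 over 783 pseudogenes outside this set, which were limited to the processed type. Since a copy can share sequence with its parent gene, reads of the parents and the copies cannot be told apart here. RPL34 had 264 and 167 counts on its 11 copies. Adding each gene's copies moved the median of the 77 genes to 0.22 and the ribosomal protein share to 3.39% in ethanol and 3.91% in Nutlin-3.

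The share of ribosomal protein counts depended strongly on the total of the column. Large columns had 1.92% in ethanol against 2.22% with Nutlin-3 (log2 difference 0.21, interval 0.19 to 0.24), and small columns had 5.59% and 6.59% (0.24, interval 0.19 to 0.28). Columns of up to 500 counts had 9.97% in ethanol and 12.4% in Nutlin-3, and columns of 2000 to 4000 counts 3.33% and 3.54%, the latter from 21 and 12 columns. Nutlin-3 had the higher share in each of the 6 ranges of total, though the intervals overlapped in the ranges of 1000 to 2000 and 2000 to 4000. Within the small columns, share and total had a Spearman rho of -0.89 in ethanol and -0.91 in Nutlin-3, and within the large columns, without the 1 described next, 0.52 and 0.38. Each pool held 113 large and 137 small columns, but depth was not equal. Small columns held 151563 human counts in ethanol and 140860 with Nutlin-3, and the median column total was 2294 and 2020.5. The part of depth in the difference of shares was not tested.

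Under 1 name a large column in each pool stood apart. Its ribosomal protein share was 11.0% in ethanol against 14.9% with Nutlin-3, while the other 112 large columns ran from 1.16% to 2.69% and from 1.48% to 2.99%. The column held 3945 and 3598 genes, against medians of 9778 and 9703 in the other large columns. Without it the pool's share was 2.27% in ethanol against 2.62% with Nutlin-3, and the median log2 fold change of the 77 genes was 0.21. Comparing columns of the same name, the share was higher in Nutlin-3 in 110 of 113 large columns and in 88 of 106 small ones. Columns of 1 pool per treatment are not replicates, and no such tally was made for other genes. The tally therefore only describes these columns.

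**Figure D4:**
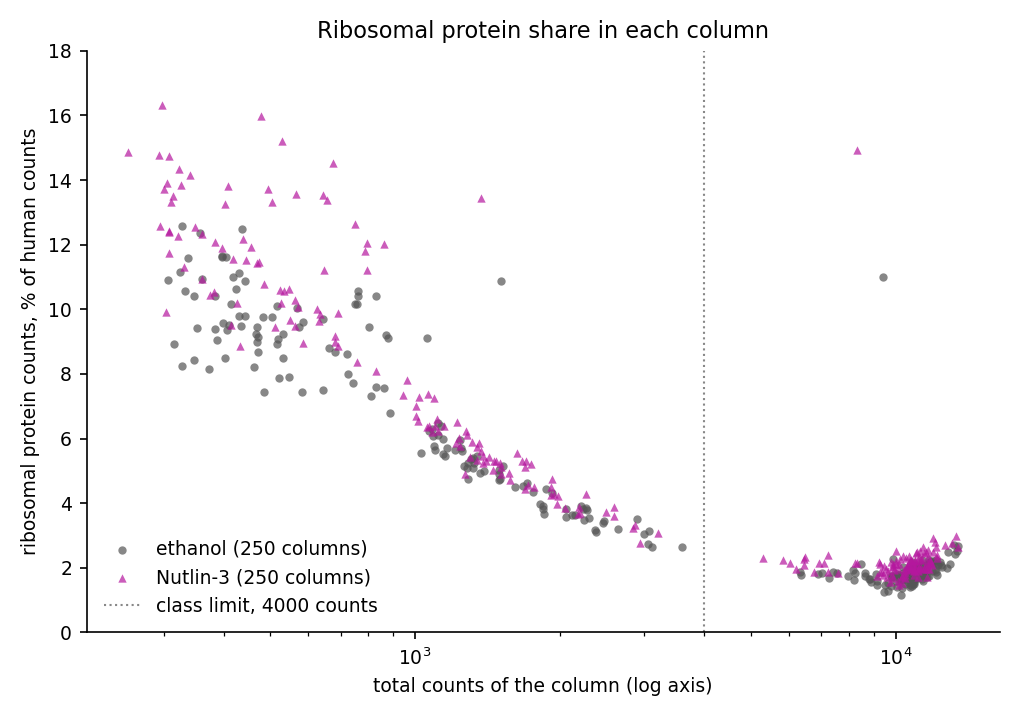
Ribosomal protein counts as percent of human counts (y axis) against the total counts of the column (x axis, log scale) for 250 ethanol columns (grey circles) and 250 Nutlin-3 columns (purple triangles), with a dotted line at 4000 counts. Shares fall from 9.97% (ethanol) and 12.4% (Nutlin-3) in columns of up to 500 counts to near 2% in the large ones, and 1 large column of each pool lies at 11.0% and 14.9%.

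Direction held for most members in both classes of columns. Scaled to human counts, 75 of 77 genes were above 0 in large columns, beside 50% of all genes that passed there, and 76 of 77 in small columns, beside 52%. The exceptions were RPL13 (392 counts with Nutlin-3 and 411 with ethanol, log2 fold change -0.03) and RPLP0 (322 and 335, -0.02) in large columns and RPS26 (22 and 25, -0.05) in small ones. RPL34 had 275 and 202 counts in large columns and 123 and 91 in small ones, log2 fold changes of 0.48 and 0.57. RPL39 had 129 and 119 in large columns and 24 and 10 in small ones, 0.16 and 1.36. The fold changes of single genes in the classes were all but unrelated (Spearman rho 0.06 over 77 genes). Intervals in small columns were wide, at -0.12 to 0.53 for RPL11, beside a standard deviation of 0.09 over the pooled fold changes of members. The rho therefore cannot tell a differing order of members from counting error.

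Counts of a gene in a large column piled up at 1. Across the 1926 other genes as abundant as the lowest member, 77.0% of values in large ethanol columns and 79.3% in Nutlin-3 were exactly 1, and 0.45% and 0.89% were 0. Ribosomal protein genes stood at exactly 1 in 31.2% of values in ethanol and 24.5% in Nutlin-3, and at 3 or more in 41.6% and 49.7%. RPL34 had exactly 1 count in 58 of the 113 large ethanol columns and 26 of the 113 large Nutlin-3 columns. RPL39 stood at 1 in 98 and 93 columns. With columns thinned at random to 5000 counts, at least 1 count was left in 72.6% of member values in ethanol and 77.8% in Nutlin-3. In small columns 71.2% and 76.0% of member values held at least 1 count as deposited, and 30.5% and 34.5% after thinning to 350 counts, which left out 9 and 19 shallower columns.

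Because so many values were 1, the counts beyond the first of each gene in each column were also summed, a choice made after the values had been seen. Members made up 11.8% of such counts in ethanol (11.64 to 12) and 15.8% in Nutlin-3 (15.6 to 16.02). In large columns the share was 11.5% and 15.3%, and in small columns 20.3% and 28.5%. All 77 members were above 0 on this measure, 71 were past 0.25 and 64 had a counting interval above 0, with a median log2 fold change of 0.54. Of the 2769 other genes that passed the filter on these counts, 48.4% were above 0, 33.7% past 0.25 and 5.81% had an interval above 0, and their median was -0.02. RPL34 had 173 such counts with Nutlin-3 and 90 with ethanol (1.17, interval 0.80 to 1.56), RPL37 215 and 131 (0.94, interval 0.62 to 1.27), and RPL13 305 and 314 (0.19, interval -0.05 to 0.42). Counting each gene once per column gave the other extreme, with a median of 0.08 and 0 members past 0.25. The size of the difference thus depended on how repeated counts were treated. All 77 genes stayed above 0 relative to human counts on both measures, while scaling pooled sums to ERCC counts left 1 of 77. For single counting this cannot show a stable direction. In large columns 99.91% (ethanol) and 99.95% (Nutlin-3) of member values held at least 1 count. RPS26 lay above 0 although 113 small ethanol columns and 115 small Nutlin-3 columns lacked it, beside 1 and 0 large ones.

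**Figure D5:**
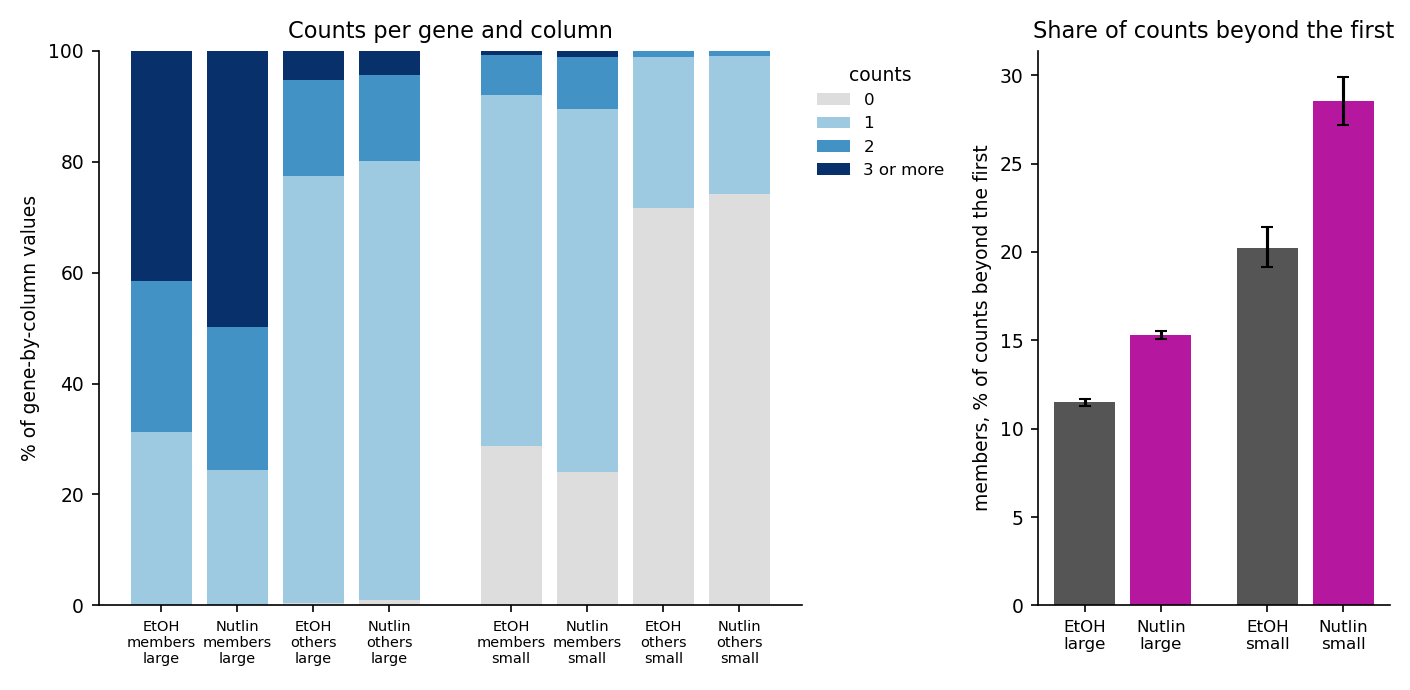
Left, percent of gene-by-column values (y axis) at 0, 1, 2 and 3 or more counts, in large and small columns of the ethanol (EtOH) and Nutlin-3 (Nutlin) pools. Bars marked members hold the ribosomal protein genes, and those marked others hold other genes at least as abundant as the lowest member. Right, members as percent of counts beyond the first (y axis), with 95% exact binomial intervals as bars. Values of 3 or more made up 41.6% (ethanol) and 49.7% (Nutlin-3) of member values in large columns, and the share of counts beyond the first was 11.5% and 15.3% in large columns.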

How the data were processed

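Counts of each gene in each column, whole numbers, were deposited by the authors in 1 table, made from ddSeq single-cell libraries per the labels' protocols. For aligner, molecular tags, genome build and cell filter the sources used here give nothing. Columns were assigned to a treatment by the word in their name, and counts were summed per treatment. The design called for a test on 4 library sums, which columns without a library could not give, so no test was run and 0 p-values were computed. Symbols and positions came from GENCODE 29 (GRCh38), matched for 25602 identifiers, and starts from RefSeq. TMM factors (1.000 ethanol, 0.9995 Nutlin-3) came from edgeR 4.0.16 in R 4.3.3 after its filter with a minimum count of 10. Log2 fold changes used 0.5 added counts, with exact binomial intervals. The fold change and interval steps were tested on simulated pools of independent Poisson counts. That simulation lacks the piling up at 1 count per column, so it cannot tell how the intervals behave under it. Genes named were the 5 highest, 3 lowest and 3 with the largest and smallest fold changes of each subunit, plus MDM2 binders, the stalk, RPSA, RPS4X and RPL41. Some genes of this rule are not reported here. RPS6 and the other members named outside this rule were chosen after their values were seen. Members, lists and rules were chosen with earlier results of these data known. Alternatives were DESeq2 1.42.0 size factors, no filter, each column class, ERCC scaling, single counting, added pseudogenes, counts beyond the first, and leaving out 1 column.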

Additional observations from a re-analysis of the deposited data

How the results depend on the processing

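With 1 pool per treatment, leaving out a library was not run, since columns carry no library. No paired analysis was possible because the columns cannot be tied to the ERCC dilutions that the treatments share. ERCC scaling turned the median log2 fold change to -0.264 over all members, -0.243 over the large and -0.277 over the small subunit. Under it 0 members were past 0.25 upward, 41 past it downward and 1 above 0. The mix of dilutions in each pool is unknown, so this scaling is uncertain. Counting a gene once per column gave medians of 0.077, 0.084 and 0.074, 0 members past 0.25, shares of 1.334% in ethanol and 1.41% in Nutlin-3, and large subunit shares of 58.69% and 58.92%. Counts beyond the first, an alternative chosen after seeing the data, gave 0.543, 0.611 and 0.502, 71 members past 0.25, shares of 11.82% and 15.81%, and large subunit shares of 53.64% and 54.56%. Added pseudogenes gave shares of 3.388% and 3.914% and large subunit shares of 57.81% and 58.24%. Large columns alone gave shares of 1.915% and 2.22%. Small columns alone gave 5.594% and 6.592%, a large subunit share of 57.19% in Nutlin-3 and a median of 0.25. Without the column that stood apart, also chosen after seeing the data, shares were 2.27% and 2.615%. DESeq2 size factors gave a median of 0.187 with 23 members past 0.25, and no filter gave 0.208 with 30. Of 66 values of the 33 named members in each column class, 59 stayed within the pooled counting interval and 3 changed sign, none of them past 0.25. Large columns hold 25756 of the 35042 member counts with Nutlin-3, so their values must lie near the pooled ones. All 7 values outside the interval came from small columns. The cause of these shifts was not tested.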

Other observations

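Members were also compared by chromosome, a grouping chosen after their values were seen and given without a test. The 4 members on chromosome 12 (RPS26, RPL41, RPL6 and RPLP0) had log2 fold changes from 0.02 to 0.14 with a median of 0.07, relative to human counts. On the other chromosomes that hold at least 3 members, medians ran from 0.14 (chromosome 15) to 0.31 (chromosome 2), and the 12 members on chromosome 19 had a median of 0.18. The 148 other genes on chromosome 12 as abundant as the lowest member had a median of -0.04, and the same measure was -0.03 for 158 genes on chromosome 2. ERCC scaling lowers these values as it does all others.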
